A study of Mus musculus with 27 samples.

Results

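The immunoglobulin light chain genes examined here are the kappa and lambda variable (V), joining (J) and constant (C) genes of the mouse. A gene was included when its identifier in the deposited table had a kappa or lambda V, J or C symbol and an immunoglobulin gene type in the GENCODE M21 annotation, which gave 118 of 55487 genes. They comprise 100 kappa V genes, 5 kappa J genes and the constant gene Igkc on chromosome 6, and 3 lambda V, 5 lambda J and 4 lambda C genes on chromosome 16. The samples were hippocampus and cortex of male C57Bl/6J wild-type mice, 8 weeks old, that carried no transgene and received a continuous infusion into the right lateral ventricle for 14 days at 0.25 µl/h. The infusate was PBS, a human control IgG (pCtrl) or α-IgLON5#1, which are autoimmune antibodies (AABs) against the neuronal surface protein IgLON5 that were purified from patient plasma. The sample labels call the control a human monoclonal IgG, whereas the study's text describes serum IgG, and it is named pCtrl here. RNA-seq was performed on 27 libraries from 14 mice, each of 1 tissue of 1 mouse: 5 hippocampi and 5 cortices with PBS, 4 and 5 with pCtrl, and 4 and 4 with α-IgLON5#1. The α-IgLON5#1 mice were numbered 8, 9, 16 and 17, the pCtrl mice 10, 11, 15, 37 and 75, and the PBS mice 14, 32, 33, 38 and 74, with mouse 11 represented by its cortex only.

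An antibody consists of heavy chains paired with light chains, and each B cell makes its light chain from either the kappa or a lambda locus. During B cell development 1 V segment is joined to 1 J segment, and RNA splicing adds the constant exon. A cell and its progeny thus share 1 V gene, while Igkc or an Iglc gene is shared by all cells of the same chain class. Unrelated B cells can use the same V gene, so V gene counts do not tell lineages apart. Plasma cells transcribe the rearranged gene at very high levels, and in mice most B cells use kappa. Healthy brain parenchyma holds few B cells, and B lineage cells can enter it in inflammation.

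The segments that a light chain is built from are shown here because the counts below are counts of these germline genes. The coding parts of the 5 kappa J segments (GENCODE M21, GRCm38, plus strand) are given 5′ to 3′, with the phenylalanine codon at the place of the conserved J motif in capitals. In Igkj3 the next codon is agt (serine), where the others have a glycine codon, so Igkj3 departs from that motif. They lie at chr6:70722562-70722599, chr6:70722916-70722954, chr6:70723223-70723260, chr6:70723548-70723585 and chr6:70723886-70723923, upstream of Igkc at chr6:70726435-70726966.
Igkj1: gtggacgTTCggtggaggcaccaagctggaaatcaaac
Igkj2: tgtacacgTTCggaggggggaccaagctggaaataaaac
Igkj3: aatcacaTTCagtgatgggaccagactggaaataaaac
Igkj4: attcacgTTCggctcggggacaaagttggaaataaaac
Igkj5: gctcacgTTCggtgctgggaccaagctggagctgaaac

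The 8 V genes that led the V counts of an α-IgLON5#1 library are shown by their coding 3′ ends, the part that joins J and contributes to the antigen-contacting loop CDR3. Each starts 18 bases before the last in-frame cysteine codon, which is in capitals, and runs to the end of the annotated V segment. The kappa genes Igkv8-24 (chr6:70216858-70216901), Igkv16-104 (chr6:68426028-68426072), Igkv3-10 (chr6:70573187-70573230), Igkv14-126 (chr6:67896599-67896642), Igkv5-37 (chr6:69963312-69963355) and Igkv6-23 (chr6:70260409-70260452) and the lambda genes Iglv1 (chr16:19085017-19085061) and Iglv2 (chr16:19260401-19260445) are read on their coding strands.
Igkv8-24: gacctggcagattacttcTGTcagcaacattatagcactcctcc
Igkv16-104: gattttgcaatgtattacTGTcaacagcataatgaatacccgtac
Igkv3-10: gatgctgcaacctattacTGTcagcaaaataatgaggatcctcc
Igkv14-126: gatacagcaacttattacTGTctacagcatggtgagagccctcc
Igkv5-37: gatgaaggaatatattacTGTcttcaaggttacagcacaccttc
Igkv6-23: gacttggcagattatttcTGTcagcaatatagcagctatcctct
Iglv1: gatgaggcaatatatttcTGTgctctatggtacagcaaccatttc
Iglv2: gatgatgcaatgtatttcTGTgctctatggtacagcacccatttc

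Iglv1 and Iglv2 were 96.7% identical over the shorter transcript, and 9.46% of the 75-base windows of Iglv1 were also found in another V or C member. Of the 108 V and C transcripts, 65 shared at least 1 window of that length, up to 59.5% of a transcript, and 43 shared none, among them Igkv8-24, Igkv16-104, Igkv14-126 and Igkv5-37. Igkv3-10 shared 35.4% of its windows and was 98.3% identical to Igkv3-5, and Igkv1-110 and Igkv1-117 were 97.5% identical. Counts of such genes are uncertain to the extent that reads were split between them, and the handling of reads with several matches is not given in the sources used here. Iglc1, Iglc3 and Iglv1 lie within the opposite-strand gene 2010309G21Rik, and Iglc2 and Igkc overlap Iglj2 and Gm30211 on their own strand.

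Library totals ranged from 19385642 to 58550621 counts. The label cell type of neurons stands for whole tissue, since the myelin gene Mbp was read at 778 to 2118 CPM (counts scaled to the library total). The tissue labels matched their markers: Prox1, a transcription factor of dentate granule cells, had 55.5 to 228 CPM in hippocampi and 13.6 to 19.9 CPM in cortices, and Lamp5 had 29.3 to 66.2 and 110 to 243 CPM. The animals were taken as separate samples from their numbers. In bulk tissue, fewer cells of a type and less RNA per cell cannot be told apart.

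Light chain transcripts were counted in every library, and were far more abundant in all 8 libraries of α-IgLON5#1 mice than in the 19 controls. In the hippocampus the summed light chain level was 693 CPM in mouse 8, 44.1 in mouse 9, 241 in mouse 16 and 773 in mouse 17 of the α-IgLON5#1 group. The pCtrl hippocampi had 1.57 CPM in mouse 10, 3.83 in mouse 15, 0.342 in mouse 37 and 1.75 in mouse 75. The PBS hippocampi had 1.82 CPM in mouse 14, 0.444 in mouse 32, 0.528 in mouse 33, 1.06 in mouse 38 and 0.335 in mouse 74. The lowest α-IgLON5#1 hippocampus was thus above every control, while the PBS and pCtrl ranges overlapped.

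The level was 438 ± 352 CPM with α-IgLON5#1, 1.87 ± 1.45 CPM with pCtrl (SD, n = 4 each) and 0.838 ± 0.617 CPM with PBS (SD, n = 5). On the scale of log10 of CPM after adding 1 count, α-IgLON5#1 exceeded pCtrl 195-fold (two-sided exact permutation test, p = 0.0286, which is the lowest that 4 against 4 libraries allow, 0.0429 after Benjamini-Hochberg adjustment over 6 comparisons). Against PBS the difference was 384-fold (exact permutation test, p = 0.0159, the lowest possible, adjusted p = 0.0317). Between pCtrl and PBS the hippocampi differed 1.98-fold, which was within the spread (exact permutation test, p = 0.286).

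In the cortex the level with α-IgLON5#1 was 213 CPM in mouse 8, 51.2 in mouse 9, 105 in mouse 16 and 424 in mouse 17. With pCtrl it was 0.743 CPM in mouse 10, 2.01 in mouse 11, 2.34 in mouse 15, 0.75 in mouse 37 and 0.596 in mouse 75. With PBS it was 1.58 CPM in mouse 14, 0.788 in mouse 32, 0.264 in mouse 33, 0.646 in mouse 38 and 0.27 in mouse 74. The α-IgLON5#1 cortices again did not overlap the controls, and the mice took the same order in both tissues, with mouse 9 lowest and mouse 17 highest.

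The cortical means were 198 ± 165 CPM (SD, n = 4), 1.29 ± 0.822 CPM (SD, n = 5) and 0.709 ± 0.538 CPM (SD, n = 5) for α-IgLON5#1, pCtrl and PBS. The fold differences were 131 against pCtrl and 247 against PBS (two-sided exact permutation tests, p = 0.0159 each, the lowest possible, adjusted p = 0.0317). The pCtrl and PBS cortices differed 1.88-fold (exact permutation test, p = 0.159, adjusted p = 0.19). All α-IgLON5#1 mice carried numbers of 17 or lower. Against only the pCtrl mice in that range, an alternative chosen after seeing the data, the fold was 111 in the hippocampus (4 against 2, exact permutation p = 0.133) and 95.4 in the cortex (4 against 3, p = 0.0571), each the lowest p those numbers allow.

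**Figure D1:**
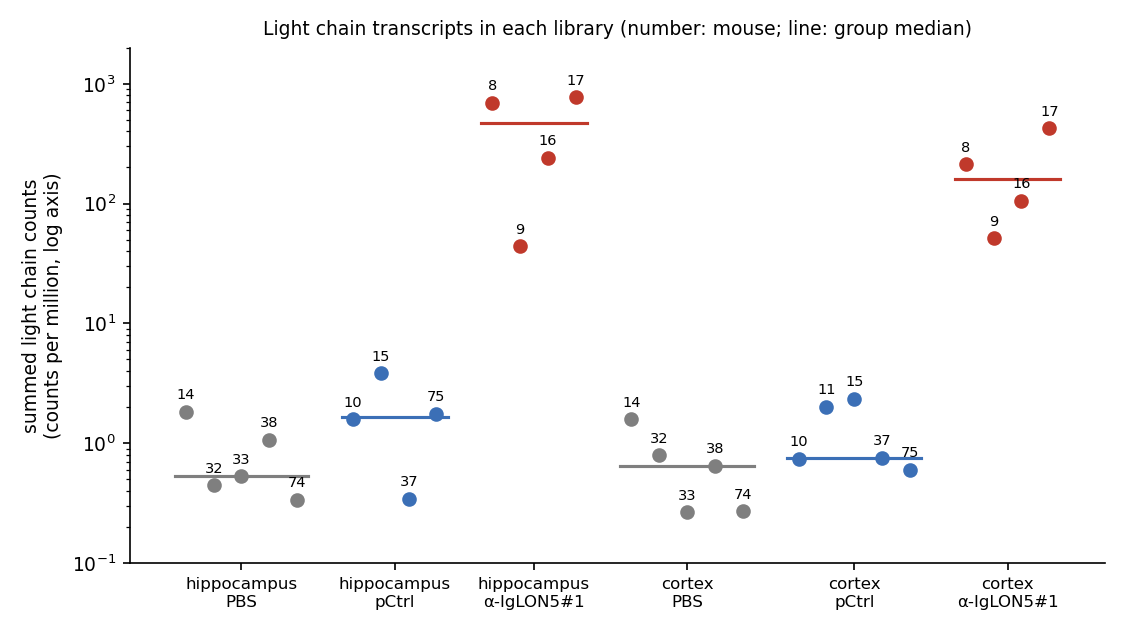
Summed light chain level in CPM (log axis) for each library, grouped by tissue and infusate, with the mouse number above each point and a line at the group median. The 8 α-IgLON5#1 libraries lie between 44.1 and 773 CPM and the 19 control libraries between 0.264 and 3.83 CPM.

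Igkc, the constant gene shared by all kappa chains, had the most counts of any member in each α-IgLON5#1 library. Its counts were 7276, 553, 3814 and 12677 in the hippocampi of mice 8, 9, 16 and 17, and 3918, 878, 2551 and 11203 in their cortices. In the controls it ranged from 7 to 132 counts in the hippocampus and from 1 to 58 in the cortex, with the highest count in each tissue from pCtrl mouse 15. The level of Igkc was 227 ± 181 CPM in α-IgLON5#1 hippocampi and 0.993 ± 1.08 CPM in pCtrl hippocampi (SD, n = 4 each).

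Igkc rose with α-IgLON5#1 in each comparison of edgeR's quasi-likelihood test, with Benjamini-Hochberg adjustment over 20271 genes. By edgeR the log2 fold change was 7.74 ± 0.79 (SE) against pCtrl in the hippocampus (adjusted p = 8.44e-07) and 9.22 ± 0.81 against PBS (adjusted p = 2.83e-08). In the cortex it was 7.25 ± 0.76 against pCtrl (adjusted p = 3.64e-06) and 8.37 ± 0.83 against PBS (adjusted p = 9.49e-07). With 1 library left out at a time, the log2 fold change against pCtrl was 7.38 to 8.88 in the hippocampus and 6.66 to 7.97 in the cortex. The change against pCtrl was not shown to differ between the tissues (interaction, adjusted p = 0.931). With only mice numbered 8 to 17 the log2 fold change was 7.24 in the hippocampus (adjusted p = 0.0395) and 6.74 in the cortex, where the call was lost (adjusted p = 0.06).

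Of the 118 genes, 39 reached 10 counts in 4 libraries and were tested, 68 had fewer counts and 11 had none. Igkc was the only one of them to reach 10 counts in 4 control libraries, so the other 38 passed through the α-IgLON5#1 libraries, their fold changes below are given with no test, and the numbers called describe the same fact as the levels above. With an adjusted p under 0.05 and a fold above 2, 34 of the 39 were called higher against pCtrl in the hippocampus, where 2.21% of all genes tested were, and 27 in the cortex, where 2.14% were. Against PBS 35 were called higher in the hippocampus (2.56% of all genes) and 31 in the cortex (2.24%). No member was called lower in any comparison, where the shares of all genes were 0.237% and 0.0247% against pCtrl and 0.109% and 0.00493% against PBS in the hippocampus and cortex. Every α-IgLON5#1 library was above every pCtrl library for 32 members in the hippocampus (6.68% of all genes) and 29 in the cortex (3.68%). Against every PBS library the numbers were 33 in the hippocampus (4.49%) and 33 in the cortex (3.14%).

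Between pCtrl and PBS edgeR called 0 light chain genes in the hippocampus, where 0.0493% of all genes were called higher and 0.0148% lower, and 0 in the cortex, where 0% were. At an unadjusted p under 0.05 there was 1 light chain gene in the hippocampus and 0 in the cortex, and DESeq2 also called 0 in both. With so few control counts of members other than Igkc, a difference between these groups was hardly detectable at this depth. The difference between tissues in the effect of α-IgLON5#1 against pCtrl was called for 0 members by edgeR (0% of all genes), 1 had an unadjusted p under 0.05, and DESeq2 called 0. With only mice 8 to 17 the numbers called higher against pCtrl by edgeR were 5 in the hippocampus (0.242% of all genes), Igkc, Igkv1-110, Iglc2 and Iglv1 among them, and 0 in the cortex (0.0444%). Without mouse 8 or without pCtrl mouse 10 the cortex had 17 calls against pCtrl (1.08 and 1.75% of all genes), and without mouse 8 it had 19 against PBS (1.29%).

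The lambda constant genes were also higher with α-IgLON5#1. Iglc1, Iglc2 and Iglc3 are the lambda constant genes with counts in these libraries, and Iglc4 had 1 count in 1 library. Iglc2 had 170, 11, 273 and 233 counts in the hippocampi of mice 8, 9, 16 and 17, and 142, 13, 239 and 135 in the cortices. In pCtrl it had 2 counts in 4 hippocampi and 12 in 5 cortices. The ratio of its summed hippocampal counts, relative to summed library totals, was 595 (95% counting interval 164 to 4925), and its cortical log2 fold change was 5.27 ± 0.72 (SE).

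Iglc1 had 92, 11, 105 and 320 hippocampal counts in mice 8, 9, 16 and 17, against 19 in pCtrl mouse 10 and 1 count in the other pCtrl hippocampi together. Its log2 fold change there was 5.34 ± 0.73 (SE), and 4.68 to 8.68 with 1 library left out at a time. Iglc1 made up 53.5% of the lambda constant counts in the hippocampus of mouse 17 (95% Wilson interval 49.5 to 57.5%) but 20.6% in that of mouse 16 (17.3 to 24.4%). In the cortices it was 34.2% in mouse 17 (28.4 to 40.4%) and 15.1% in mouse 16 (11.8 to 19.1%), so the intervals of the tissues of mouse 17 did not overlap either. These intervals cover counting error only and take reads as independent. Iglc3, which shares 1.32% of its 75-base windows with another member and is 95.4% identical to Iglc2, led in 1 α-IgLON5#1 library, the cortex of mouse 9, with 52.2% of 46 lambda constant counts.

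Among the lambda V genes, Iglv1 had 156, 13, 368 and 507 counts in the hippocampi of mice 8, 9, 16 and 17 and 130, 26, 144 and 175 in the cortices. Its log2 fold change against pCtrl was 7.24 ± 0.77 (SE) in the hippocampus and 6.55 ± 0.86 in the cortex. All 10 pCtrl hippocampal counts of Iglv1 were from mouse 10. With 1 library left out at a time its hippocampal log2 fold change was 6.79 to 11.3. Iglv2 had 162, 5, 234 and 185 counts in the hippocampi and 81, 11, 175 and 112 in the cortices, with a cortical log2 fold change of 5.51 ± 0.81 (SE). Iglv3 was the least used, with 0 to 20 counts in the hippocampi and 0 to 55 in the cortices, and it had none in either tissue of mouse 9. Its log2 fold change against pCtrl in the hippocampus was 4.72 ± 1.32 (SE).

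Lambda was the minor chain in every α-IgLON5#1 library. The lambda share of light chain counts was 4.71% in the hippocampus of mouse 8 (95% Wilson interval 4.37 to 5.09%), 5.07% in mouse 9 (3.81 to 6.72%), 14.6% in mouse 16 (13.8 to 15.4%) and 5.18% in mouse 17 (4.91 to 5.46%). In the cortex it was 7.07% in mouse 8 (6.51 to 7.67%), 6.04% in mouse 9 (4.9 to 7.43%), 15.1% in mouse 16 (14.1 to 16.2%) and 2.32% in mouse 17 (2.14 to 2.53%). Mouse 16 stood above the others in both tissues with intervals that did not overlap theirs. When the counts of Igkv6-23 were left out, an alternative chosen after seeing the data, the cortex of mouse 17 had 3.48%, still the lowest of the 4 cortices. These intervals cover counting error only, since reads copied by PCR are not independent molecules.

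The control shares rested on few counts and were spread widely. The pCtrl hippocampi had 42.7% in mouse 10, 2% in mouse 15, 7.14% in mouse 37 and 0% in mouse 75, where 0 of 69 light chain counts allows a share of up to 4.35% by a limit of 3 counts (95% Wilson upper limit 5.27%). The PBS hippocampi had 9.43, 7.69, 5.56, 11.4 and 14.3% in mice 14, 32, 33, 38 and 74. The control cortices ranged from 0 to 25%. No group difference in lambda share passed the test: α-IgLON5#1 against pCtrl gave p = 0.914 in the hippocampus and 0.46 in the cortex, and against PBS 0.397 and 0.429 (exact permutation tests, two-sided), with adjusted p from 0.921 to 0.937 over 6 comparisons. The hippocampal difference from pCtrl was -5.56 percentage points, and without pCtrl mouse 10 it was 4.34 points in the other direction. Without mouse 16, a setting picked out after its value was seen, the hippocampal difference from PBS was -4.69 points (exact permutation p = 0.0357, unadjusted, the lowest p those numbers allow).

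**Figure D2:**
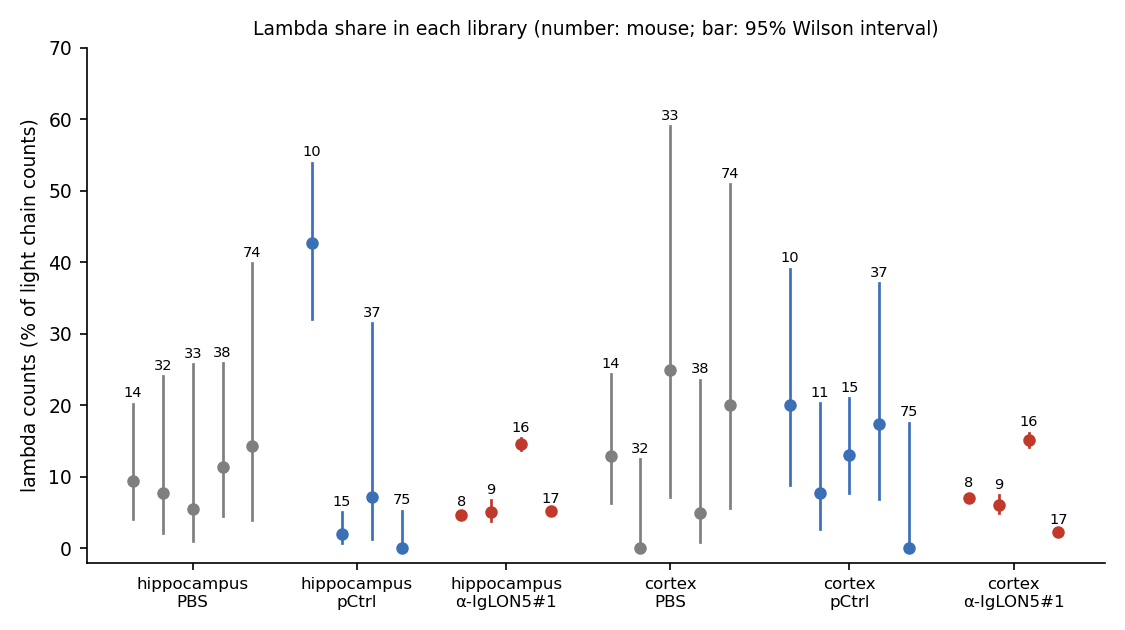
Lambda counts as a percentage of all light chain counts in each library, grouped by tissue and infusate, with the mouse number above each 95% Wilson interval. Mouse 16 has 14.6 and 15.1% in its 2 tissues, the other α-IgLON5#1 libraries have 2.32 to 7.07%, and the control intervals are wide.

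V genes carried 38514 counts in the 8 α-IgLON5#1 libraries and 358 in the 19 controls. Of 103 V genes, 91 had a count in an α-IgLON5#1 library, 31 had a count in all 8 and 4 had at least 10 counts in all 8. Those 4 were Igkv1-110, Igkv1-117, Igkv16-104 and Iglv1. V gene shares are given as percentages of all V counts of a library, without division by length, and the annotated V transcripts are 338 to 501 bases long.

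By highest count the leading V gene was a different one in each of the 8 libraries. In the hippocampi it was Igkv8-24 in mouse 8 with 14.3% of V counts (95% Wilson interval 13.5 to 15.3%), Igkv16-104 in mouse 9 with 9.45% (6.66 to 13.2%), Iglv1 in mouse 16 with 11.1% (10.1 to 12.2%) and Igkv3-10 in mouse 17 with 16.7% (16.0 to 17.4%). In the cortices it was Igkv14-126 in mouse 8 with 11.9% (10.9 to 13.1%), Igkv5-37 in mouse 9 with 24.3% (20.6 to 28.5%), Iglv2 in mouse 16 with 10.4% (9.07 to 12%) and Igkv6-23 in mouse 17 with 66.3% (65.4 to 67.1%). The leading genes of the 2 tissues differed within each mouse, but those of mouse 16, Iglv1 and Iglv2, were 96.7% identical. Some leads were narrow: in the hippocampus of mouse 9 Igkv16-104 had 29 counts and Igkv1-110 27. In the cortex of mouse 16 Iglv2 had 175 counts, Igkv1-110 153 and Iglv1 144. All but the cortex of mouse 17 had leading shares under 25%.

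Igkv6-23, a kappa V gene at chr6:70260409-70260955 on the minus strand with an exon for the leader and an exon for the variable domain, was the V gene with the most counts. It had 7628 counts in the cortex of mouse 17 and 815 in its hippocampus, where it held 6.78% of V counts. In the other α-IgLON5#1 libraries it had 59, 9 and 146 counts in the hippocampi and 33, 9 and 49 in the cortices of mice 8, 9 and 16. Of its 8748 counts, 96.5% came from mouse 17. The kappa V genes described singly were chosen by their mean CPM or as leading genes, which the α-IgLON5#1 libraries set. The log2 fold change of Igkv6-23 against pCtrl was 7.28 ± 1.76 (SE) in the hippocampus and 5.73 without mouse 17, and 10.56 ± 1.84 in the cortex and 5.14 without mouse 17.

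Igkv1-110 was prominent in each of the 4 mice. It held 5.46, 8.79, 7.33 and 12.5% of V counts in the hippocampi of mice 8, 9, 16 and 17 and 5.39, 7.37, 9.13 and 2.91% in the cortices, and ranked between 2 and 6 in each library. It had no count in the 4 pCtrl hippocampi. Its counts summed over the α-IgLON5#1 hippocampi, relative to their summed library totals, were at least 1212-fold higher than a floor of 3 counts over the pCtrl group, and at least 497-fold higher without mouse 17. In the cortex the same ratio of summed counts to pCtrl, with 1 count in 5 libraries, was 686 (95% counting interval 123 to 27126). Igkv1-117, its near-identical relative, held 1.26 to 10.3% and had a log2 fold change of 7.94 ± 0.87 (SE) in the hippocampus. All 5 pCtrl hippocampal counts of Igkv1-117 were from mouse 15, and with 1 library left out at a time its log2 fold change was 6.91 to 11.0.

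Igkv16-104 held 16.5% of V counts in the hippocampus of mouse 17 and 9.45% in that of mouse 9, but 0.482% in mouse 16. Igkv8-24 held 14.3 and 6.81% in the tissues of mouse 8, against 0.261 to 4.58% elsewhere. Igkv5-43 and Igkv1-135 were likewise highest in mouse 8, with 9.5 and 9.47% in its hippocampus and 6.61 and 6.73% in its cortex. Igkv12-89 held 7.57 and 7.19% in the hippocampi of mice 16 and 17, against 0.631% in mouse 8.

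Several V genes were abundant in 1 mouse and low or at 0 in the rest. Of the 31 V genes that reached 100 counts in any α-IgLON5#1 library, 8 did not pass the filter of 10 counts in 4 libraries. Igkv3-10 had 2007 counts in the hippocampus and 241 in the cortex of mouse 17, 11 in the tissues of mouse 8 together, and none in mice 9 and 16 or in any control. Igkv3-12 had 690 and 43 counts in mouse 8, and 27 in the other mice together. Igkv5-37 had 13 and 109 counts in mouse 9, 4 in mouse 16 and none in mice 8 and 17. Igkv14-126, which led the cortex of mouse 8 with 403 counts, was not confined to 1 mouse, with 168 and 64 counts in the hippocampus and cortex of mouse 17. It passed the filter but was not among the genes called against pCtrl in either tissue.

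Of the 45 V genes with at least 100 counts over the α-IgLON5#1 libraries, 8 drew at least 90% of them from 1 mouse. Besides Igkv6-23, Igkv3-10, Igkv3-12 and Igkv5-37 these were Igkv4-86 and Igkv4-68, with 99.4 and 95.7% from mouse 17, and Igkv2-109 and Igkv8-28, with 92.9 and 90.2% from mouse 8, which are named after their values were seen. At the other end, Iglv1 drew 44.9% of its counts from mouse 17 and Iglv2 42.4% from mouse 16, their leading mice.

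**Figure D3:**
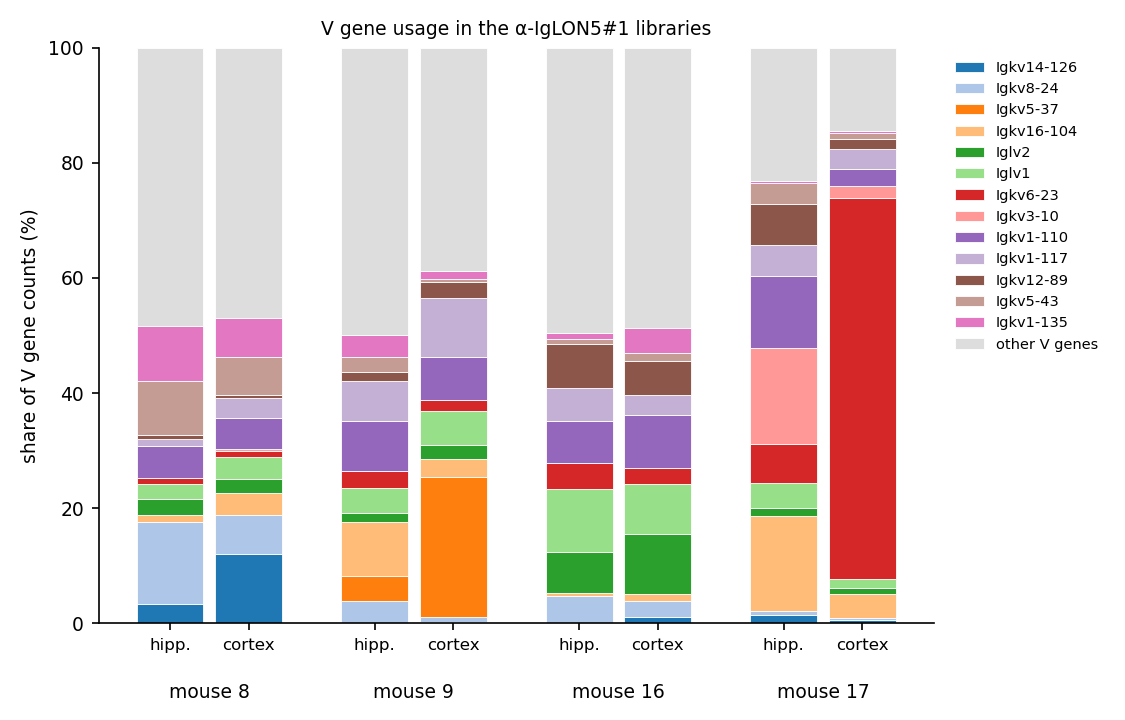
V gene counts of the 8 α-IgLON5#1 libraries as percentages of all V counts, with the hippocampus and the cortex of each mouse side by side and 13 genes shown by color. Igkv6-23 fills 66.3% of the cortex of mouse 17 and 6.78% of its hippocampus, and no other gene exceeds 24.3% in a library.

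How evenly the kappa V genes were used was measured as an effective number, the inverse Simpson index, which is the number of equally used genes that would give the same chance of drawing the same gene again. It was 14.0, 23.4, 19.7 and 9.85 in the hippocampi of mice 8, 9, 16 and 17 and 19.8, 9.82, 25 and 2.12 in the cortices. The cortex of mouse 17 was the lowest, with 1 gene making up more than 50% of its V counts, while 4 to 9 genes were needed in the other libraries. Since libraries with more counts show more rare genes, the expected number of V genes in a draw of 300 V counts was also computed, and it ran from 36.0 to 46.6 in the hippocampi and from 26.3 in mouse 17 to 50.7 in mouse 16 in the cortices.

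By family, the 10 Igkv1 genes held the highest mean share of kappa V counts, 18.7%, with 17.1 to 26% in 7 libraries and 6.99% in the cortex of mouse 17. The 9 Igkv6 genes held 69.1% in that cortex and 5.64 to 13.9% in the others. The 26 Igkv4 genes are 26% of all kappa V genes and held 7.18 to 15.9%. The Igkv8 genes had their highest shares in mouse 8, with 22.8 and 12.6% in its tissues.

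Along the kappa locus the V genes lie 0.0184 to 3.17 Mb from Igkj1, and 62 of the 100 are on the opposite strand to the J genes, so that they join by inversion of the DNA between them. Within 1 Mb of Igkj1 lie 40 V genes, which held 30.0 to 56.7% of kappa V counts in the hippocampi and 29.7 to 73.6% in the cortices. The 29 genes beyond 2 Mb held 30.2 to 45.4% in the hippocampi and 17.2 to 43.7% in the cortices, so both ends of the locus were used in each mouse. Genes on the opposite strand held 39.7 to 68.8% of kappa V counts in the hippocampi and 45.9 to 82.7% in the cortices. The 73.6 and 82.7% were both from the cortex of mouse 17, and Igkv6-23 is within 1 Mb and on the opposite strand.

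**Figure D4:**
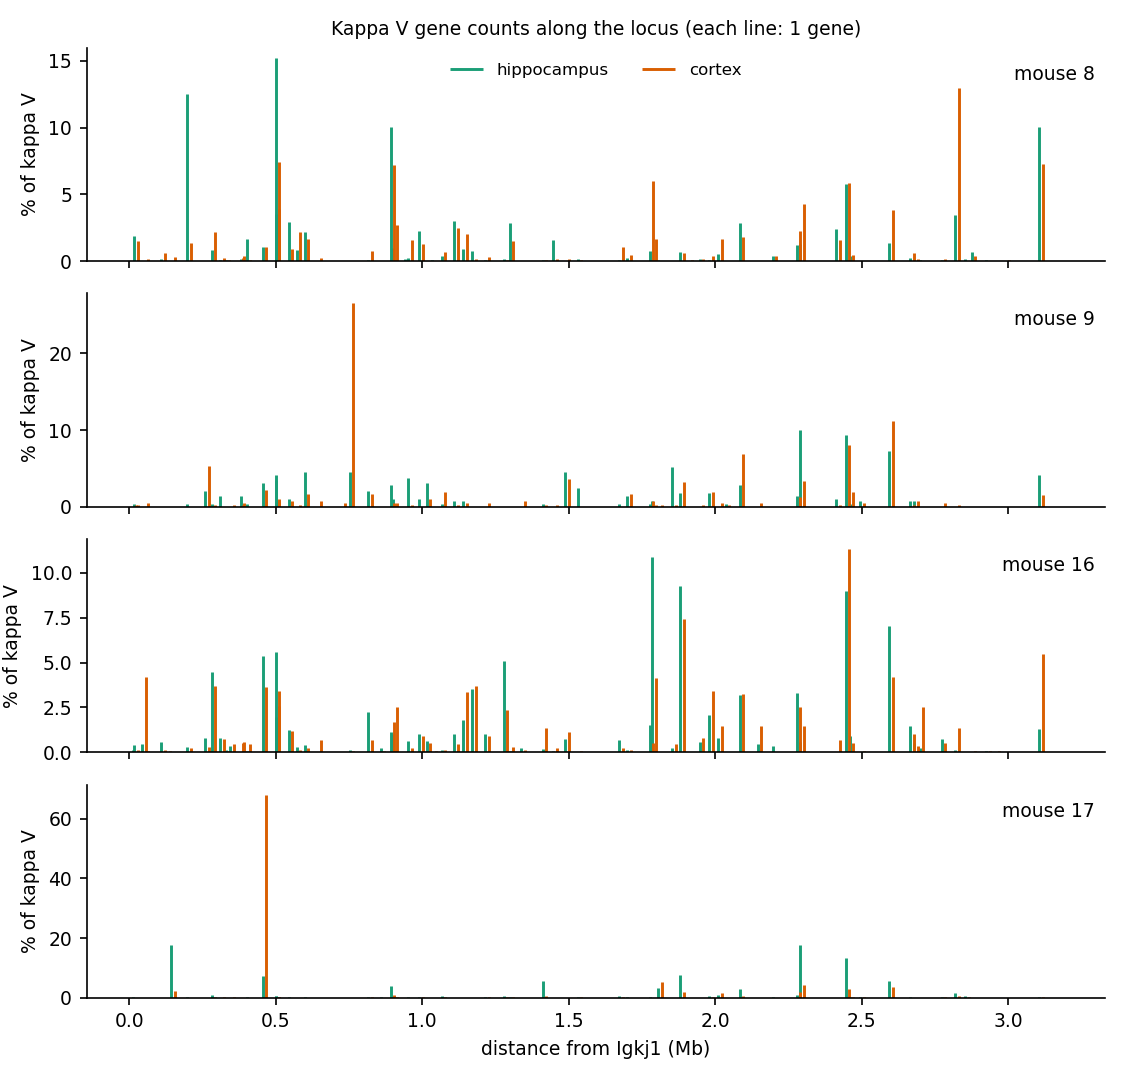
Share of kappa V counts (%) of each kappa V gene against its distance from Igkj1 (Mb), in 1 panel for each α-IgLON5#1 mouse with hippocampus and cortex in different colors, the cortex lines set slightly to the right, and a vertical scale of its own for each panel. Counts come from genes along the whole locus, and the tallest line, Igkv6-23 in the cortex of mouse 17, differs from the tallest lines of mice 8, 9 and 16.

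V gene usage was compared between the tissues as the shared percentage, the sum over V genes of the smaller of the 2 shares. Hippocampus and cortex of the same mouse shared 63.8% in mouse 8, 56.7% in mouse 9, 74.3% in mouse 16 and 36.1% in mouse 17. A hippocampus and a cortex of different mice shared 17.2 to 51.7% (median 39.9%, 12 pairs). Each cortex was most like the hippocampus of its own mouse, in 4 of 4 cases, and 3 of 4 hippocampi were most like their own cortex. The exception was mouse 17, whose hippocampus shared 37.4, 38.4 and 45.1% with the cortices of mice 8, 9 and 16, each above the 36.1% with its own. Without the leading V gene of each library the same-mouse pairs shared 61.3 to 72.0% and the others 30.3 to 53.0%, with 4 of 4 in both directions, as also with Spearman's correlation of the shares (0.715 to 0.901 across V genes within mice, 0.41 to 0.716 between). These are descriptions over 4 mice with no test, and V genes are not independent replicates.

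**Figure D5:**
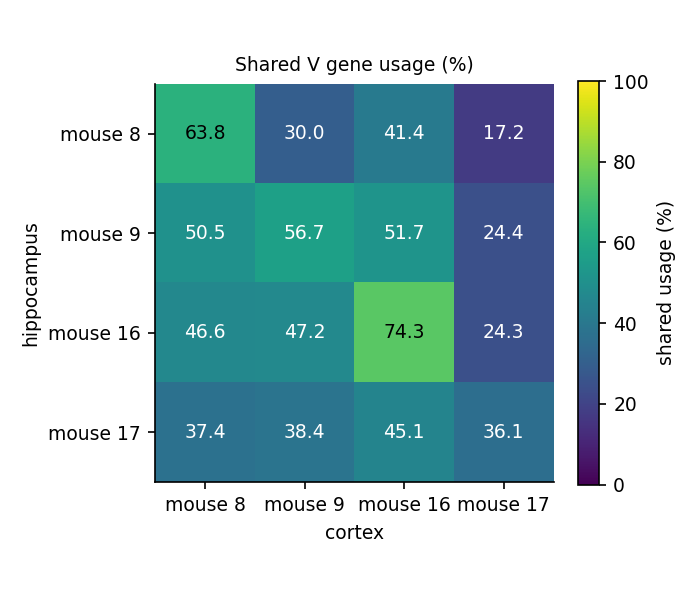
Shared V gene usage (%) between each α-IgLON5#1 hippocampus (rows) and cortex (columns), by mouse. The diagonal, with both tissues from the same mouse, reads 63.8, 56.7, 74.3 and 36.1%, against 17.2 to 51.7% off the diagonal.

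The kappa J genes are 38 to 43 bases long as annotated, and few reads were assigned to them: 136 counts over the 8 α-IgLON5#1 libraries and 4 over the 19 controls. Igkj5 had 50 counts, Igkj4 28, Igkj2 27, Igkj3 18 and Igkj1 13 in the α-IgLON5#1 libraries, and the lambda J genes had 9 in all. Every J gene failed the filter. These numbers do not give the J usage of the transcripts, because a read that spans V and J need not be assigned to the J gene.

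In the controls 65 V genes had a count, and the highest totals over the 19 libraries were 42 for Igkv10-94, 28 for Igkv8-19 and 22 for Igkv6-20. In the hippocampus of pCtrl mouse 75 Igkv10-94 made up 28 of 32 V counts (87.5%, 95% Wilson interval 71.9 to 95%), and in its cortex 7 of 14. In the hippocampus of pCtrl mouse 10, Igkv6-17 had 14 of 39 V counts and Iglv1 10, beside the 19 counts of Iglc1. The hippocampus of pCtrl mouse 15, with the highest light chain level of the controls, had 66 V counts over 26 genes and 10.6% in the leading one, Igkv6-23. These control genes were named after their values were seen.

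Heavy chain and B lineage genes were read beside the light chains. Heavy chain constant genes summed to 759, 57.2, 326 and 991 CPM in the hippocampi of mice 8, 9, 16 and 17, and to 274, 68.1, 158 and 496 CPM in the cortices, in the same order of mice as the light chains. The ratio of light to heavy constant counts was 0.409 to 0.514 in the α-IgLON5#1 libraries and 0.00417 to 0.225 in the controls, where 242 to 913 heavy constant counts, mostly Ighm, stood beside 3 to 134 light constant counts. Ighm, the heavy chain of IgM, had 6.81 to 22.9 CPM in the controls, so its control level was above that of all light chain genes together.

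Jchain, which links IgM and IgA units and is made by plasma cells, had 54.8, 4.13, 41.3 and 87.3 CPM in the hippocampi and 25.9, 5.11, 15.1 and 31.6 CPM in the cortices of mice 8, 9, 16 and 17. Its log2 fold change against pCtrl was 6.44 ± 0.65 in the hippocampus (edgeR, adjusted p = 8.44e-07) and 5.23 ± 0.61 in the cortex (adjusted p = 9.05e-06). Cd79a, a signaling chain of the B cell receptor, was called against pCtrl in the hippocampus, with a log2 fold change of 1.68 ± 0.51 (edgeR, adjusted p = 0.0434), and not in the cortex (adjusted p = 0.266). Mouse 9 went the other way for Cd79a, with 0.348 CPM in the hippocampus and 0.149 in the cortex, where the lowest pCtrl libraries had 0.391 and 0.356 CPM. The B cell surface gene Ms4a1 passed the filter only through α-IgLON5#1 libraries and is given with no test. It had 35, 0, 9 and 51 counts in the hippocampi and 59, 0, 6 and 26 in the cortices of mice 8, 9, 16 and 17, and at most 8 in a control. In the hippocampus of mouse 9, with 887 light chain counts, Jchain had 83. Mzb1, a plasma cell chaperone gene, did not pass the filter. It had 0.412, 0.0498, 0.189 and 0.793 CPM in the hippocampi and 0.42, 0.0746, 0.182 and 0.332 CPM in the cortices of mice 8, 9, 16 and 17, and 0 to 0.155 CPM in the controls, so that mouse 9 alone lay within the control range.

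Among lists of related genes, 8 of 14 tested B cell genes were called higher against pCtrl in the hippocampus and 5 of 14 in the cortex, beside 2.21 and 2.14% of all genes, and 4 and 3 of 13 plasma cell genes. Of these, 4 B cell and 2 plasma cell genes passed the filter only through α-IgLON5#1 libraries, and among the other 10 and 11 the numbers called were 5 and 3 B cell genes and 3 and 2 plasma cell genes. The summed B cell genes read 27.4 to 36.7 CPM in α-IgLON5#1 hippocampi and 10.2 to 13.2 CPM in control hippocampi, and 19.2 to 39.5 and 10.7 to 13.7 CPM in the cortices. The summed plasma cell genes overlapped the controls in both tissues, with 106 to 242 CPM in α-IgLON5#1 and 114 to 139 CPM in control hippocampi, and 138 to 194 and 132 to 151 CPM in the cortices. Of 10 transcription factors that act on light chain promoters and enhancers, 5 rose against pCtrl in the hippocampus, Pou2f2, Pou2af1, Spi1, Irf4 and Irf8, and 2 in the cortex, Pou2af1 and Spi1, of which Pou2af1 passed the filter only through α-IgLON5#1 libraries. In whole tissue the cells in which these factors rose, B lineage or other, were not identified. Of 8 tested genes for folding and assembly in the endoplasmic reticulum none was called in either tissue, and their hippocampal log2 fold changes had a median of 0.11 beside 0.0012 over all genes. Of 7 genes for the surrogate light chain and recombination only 1 passed the filter and it was not called, the list summed to 0.172 to 0.956 CPM across the libraries, and of 4 tested germinal center and hypermutation genes none was called.

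Markers of other cell types that the tissue could hold were read in the same way. Of 6 tested T cell genes 2 were called higher against pCtrl in the hippocampus, Cd4 and Cd5, and 1 in the cortex, Cd3g, beside 2.21 and 2.14% of all genes. Cd5 and Cd3g passed the filter only through α-IgLON5#1 libraries, while Cd3e, Cd3d, Cd8a and Themis did not pass the filter. The summed T cell genes read 4.91 to 9.06 CPM in α-IgLON5#1 hippocampi and 2.66 to 4.88 CPM in control hippocampi, and 8.93 to 10.5 and 5.81 to 8.92 CPM in the cortices. Of 7 blood cell genes, 5 tested choroid plexus genes and 8 neuronal genes none was called in either tissue, and no gene of these lists was at 0 in every library of a group. The summed blood cell genes read 2.84 to 12.1 CPM in α-IgLON5#1 hippocampi, 5.4 to 9.87 in pCtrl and 4.2 to 7.43 in PBS hippocampi, and the choroid plexus genes 15.7 to 20, 11.1 to 20.9 and 18.7 to 23.6 CPM. In the cortices the blood cell genes read 2.92 to 20.9 CPM with α-IgLON5#1, 6.52 to 10.1 with pCtrl and 4.41 to 9.37 with PBS, so that the highest value was from an α-IgLON5#1 library, and the choroid plexus genes 3.65 to 9.41, 5 to 9.93 and 5.37 to 11.3 CPM. Of 8 astrocyte and oligodendrocyte genes Gfap was called higher in both tissues, and of 6 microglial genes none was, with sums of 398 to 584 CPM in α-IgLON5#1 and 278 to 351 CPM in control hippocampi, and 372 to 403 and 282 to 356 CPM in the cortices. The part of these cell types in the light chain results was not tested.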

How the data were processed

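The authors extracted RNA from hippocampus and cortex, sequenced it and deposited a table of raw counts per gene for 27 libraries. Libraries were made with a stranded mRNA kit, per the labels. Paired-end reads were aligned to GRCm38 with STAR, as the study's methods state. The counting program and the use of strand are not given in the sources used here. Identifiers were matched without version to GENCODE M21 (55141 of 55487 found), which gave the symbols, positions and sequences. Counts were tested with edgeR 4.0.16 in R 4.3.3 (TMM, quasi-likelihood test, 6 groups of tissue and infusate, all 27 libraries), on 20271 genes with 10 counts in 4 libraries with a call at adjusted p below 0.05 and more than 2-fold change. DESeq2 1.42.0 was an alternative. Summed levels and lambda shares were compared with two-sided exact permutation tests, adjusted over 6 comparisons. Library totals were 19385642 to 58550621, and Wilson intervals give the counting error at 95%. A fold against a group at 0 uses a floor of 3 counts over the group. Each number in the labels is 1 mouse, so hippocampus and cortex are paired between tissues only. Deviations from the group means correlated within mice at -0.052 to 0.459 (median 0.192, above 0.1 in 8 of 13 mice). No pair of libraries within a group was alike within sampling noise (lowest chi-square per degree of freedom 4.42). Genes named were Igkc, the lambda C and V genes, the 10 kappa V genes with the highest mean CPM over all libraries and the leading V gene of each α-IgLON5#1 library. The members and lists were chosen with earlier results of these data known. Scripts were tested on simulated data.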

Additional observations from a re-analysis of the deposited data

Results flagged for a closer look

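For each named gene and for the lambda share, values that lay far from the others of their group by Dixon's criterion were sought in 58 groups of libraries, and 20 were found. Chance gives about 1 in 20 groups for genes not chosen by their values. The kappa V genes were named for their mean CPM or for leading a library, so a library apart follows in part from that choice and is no result for them. Genes of 1 group are not independent of each other.

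The lambda share was 42.7% in the hippocampus of pCtrl mouse 10, far above the other pCtrl hippocampi, where Iglc1 (0.398 CPM) and Iglv1 (0.21 CPM) also stood apart. It was 14.6% in the hippocampus of α-IgLON5#1 mouse 16. Igkc stood apart in the cortex of PBS mouse 14 at 0.994 CPM.

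Mouse 17 stood apart with Igkv6-23 at 24.9 CPM in the hippocampus and 141 CPM in the cortex, with Igkv3-10 at 61.2 and 4.45 CPM, and with Igkv16-104 at 60.6 CPM in the hippocampus. Mouse 8 stood apart with Igkv8-24 at 43.3 and 6.45 CPM, with Igkv3-12 at 35.5 and 1.21 CPM, with Igkv1-135 at 28.6 CPM in the hippocampus, and in the cortex with Igkv14-126 at 11.3 CPM and Iglv3 at 1.54 CPM. Mouse 9 stood apart with Igkv5-37 at 0.647 and 4.06 CPM, and was the low one for Iglv1 in the cortex at 0.969 CPM.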

How the results depend on the processing

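Light chain levels kept their direction under each alternative run. Leaving out 1 library, the log10 difference of α-IgLON5#1 from pCtrl in the hippocampus was 2.09 to 2.55, with exact permutation p = 0.0571 each time, the lowest that 4 against 3 libraries allow, and with only mice 8 to 17 it was 2.05 in the hippocampus and 1.98 in the cortex, an alternative chosen after seeing the data.

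The lambda share differences, none of which passed the test, turned direction under several settings. With variable genes only they were 0.495 percentage points for α-IgLON5#1 against pCtrl and -1.19 for pCtrl against PBS in the hippocampus, and 2.58 for α-IgLON5#1 against PBS and 3.15 for pCtrl against PBS in the cortex. Leaving out 1 library gave -9.88 to 4.34 and, for pCtrl against PBS, -6.63 to 7.59 in the hippocampus and -4.12 to 2.13 in the cortex. For α-IgLON5#1 against PBS in the hippocampus it gave -4.69 to -1.14. The cause was not tested.

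Without a filter beyond 1 count, 107 members were tested and 65 were called against pCtrl (1.25% of all genes higher) and 69 against PBS (1.47%) in the hippocampus and 42 against pCtrl in the cortex (1.26%). With only mice 8 to 17 the calls against pCtrl were 5 (0.242%) and 0 (0.0444%), and with only the groups compared 19 against PBS in the cortex (1.36%). Leaving out 1 library gave 17 to 30 calls against pCtrl (1.08 to 2.71%) and 19 to 32 against PBS (1.29 to 2.59%) in the cortex. A filter of 10 counts in every library left 0 members and gave no value. By Shannon entropy the effective number of kappa V genes in the hippocampi was 24 in place of 16.7 ± 6.00 (SD, n = 4). With the animal as replicate block, the number of members whose effect differed between tissues was 0, as without it. Libraries with few light chain counts limit the control shares and V usage.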

Other observations

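The 60 kappa and lambda pseudogenes in the annotation were read at 0 to 0.183 CPM in the α-IgLON5#1 libraries and at no more than 0.0507 CPM in the controls.

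Kappa V counts per Igkc count were 0.76, 0.523, 0.71 and 0.892 in the hippocampi of mice 8, 9, 16 and 17 and 0.794, 0.468, 0.529 and 1 in their cortices.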
